A study of Mus musculus with 64 samples.

Results

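Stem and myeloid progenitors (SMP) of spleen and bone marrow were compared in scat mice in anemic crisis, organ against organ within each mouse. SMP are cells sorted as Lin-, Sca-, Kit+, CD34+ and CD16/32-low, a gate the study used because Sca1 (Ly6a) is so low in BALB mice that stem cells cannot be set apart from common myeloid progenitors. All 6 libraries with the disease state critical and the cell type SMP were taken, out of 64 RNA-seq libraries from 18 mice. The 3 crisis mice are homozygous scat/scat for a mutant Rasa3 allele (strain CbyJ.Cby-Rasa3(scat)/Llp), which is carried in every cell. Mouse 2608 was 23 days old, mouse 2629 was 28 and mouse 2953 was 26, and each gave a spleen and a marrow library. Triples of values below follow that order of mice. Beside them stand 6 SMP libraries of young wild-type (WT, +/+) mice of the same strain aged 23, 25 and 28 days, whose spleen SMP (3 mice) and marrow SMP (3 mice) came from different animals, and 6 libraries of sorted megakaryocyte-erythroid progenitors (MEP) from both organs of the same 3 crisis mice.

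The protein RASA3 speeds GTP hydrolysis by the small GTPases Ras and Rap1 and so turns their signals down. In mice, marrow makes blood of all lineages throughout life, while the spleen is an organ of reserve in which red cell production expands under anemia. The SMP gate spans cells with stem, lymphoid-primed, granulocyte-monocyte, megakaryocyte and early erythroid features, so a sorted library is a mixture. In a bulk library, fewer cells of a type and less RNA per cell cannot be told apart.

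Values are the authors' normalised counts, rescaled among the 6 libraries by their median ratio and written below as counts. A difference is spleen minus marrow on the log2(count + 1) scale, with its standard error (SE) and an adjusted p from limma with the mouse as a block. The deposited columns held 35.1 M to 66.9 M normalised counts and 17620 to 19309 genes above 0. Kit, the receptor the gate selects on, was present in all libraries at 25044, 21829 and 37865 in marrow and 26186, 13111 and 43917 in spleen, and the difference did not pass the test (log2 -0.15, SE 0.19, adjusted p = 0.587). Cd34, the other selected marker, stood at 20939, 22598 and 16639.8 in marrow and 12353, 3722 and 7867 in spleen, lower in spleen in every mouse (log2 -1.48, SE 0.31, adjusted p = 0.022). Rasa3 itself was lower in spleen as well, at 9386, 7412 and 7322 in marrow and 7261, 3726 and 5541 in spleen (log2 -0.59, SE 0.17, adjusted p = 0.0438), a call that 8 of 14 alternatives ended, with differences of -0.79 to -0.39 and adjusted p up to 0.34. Gm42418, a lincRNA model at chr17:39846958-39848788 (GRCm38) that lies within ribosomal RNA sequence, took 0.45 to 0.55% of the marrow and 1.42 to 3.91% of the spleen libraries (log2 2.51, SE 0.27, adjusted p = 0.0102), and mitochondrial transcripts took 2.61 to 4.33%. The part of this ribosomal signal in the results was not tested.

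Of 15107 genes tested, 2952 (19.5%) differed between the organs at an adjusted p under 0.05. Of these, 1351 (8.94% of those tested) were higher in spleen and 1601 (10.6%) were lower. The lower genes differed by more: 1261 of them were at least 2-fold lower and 85 at least 8-fold lower, against 374 and 16 on the higher side. Counts over gene lists below cover the members with a mean of at least 10, since the rest lay under that level or had no matching symbol. Lists share members, so their counts are not independent. Flt3 is in the dendritic, lymphoid-primed and stem lists, and Csf1r in the monocyte and granule lists. Csf3r is in the granule and mature neutrophil lists, and Rag1 and Rag2 are in the lymphoid-primed and B cell lists. In 2951 of the 2952 genes all 3 mice shared the direction, which the paired test selects for, so it gives no separate support. For 2346 the 3 spleen values did not overlap the 3 marrow values, which held for 34.4% of all genes tested. The call rests on the pairing and on limma's moderated spread: with the mouse left out as a block 0 genes passed (3992 at an unadjusted p under 0.05), and with neither trend nor robust moderation 0 passed as well (4647). Other scalings shifted the balance, and their counts are given for many, but not all, of the lists whose calls they ended. The median difference of all genes was -0.01 here, -0.19 without rescaling, -0.21 after division by column totals and -0.12 by upper quartiles, and the share of calls that were higher in spleen was 45.8%, 15.3%, 24.4% and 42.7%.

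**Figure D1:**
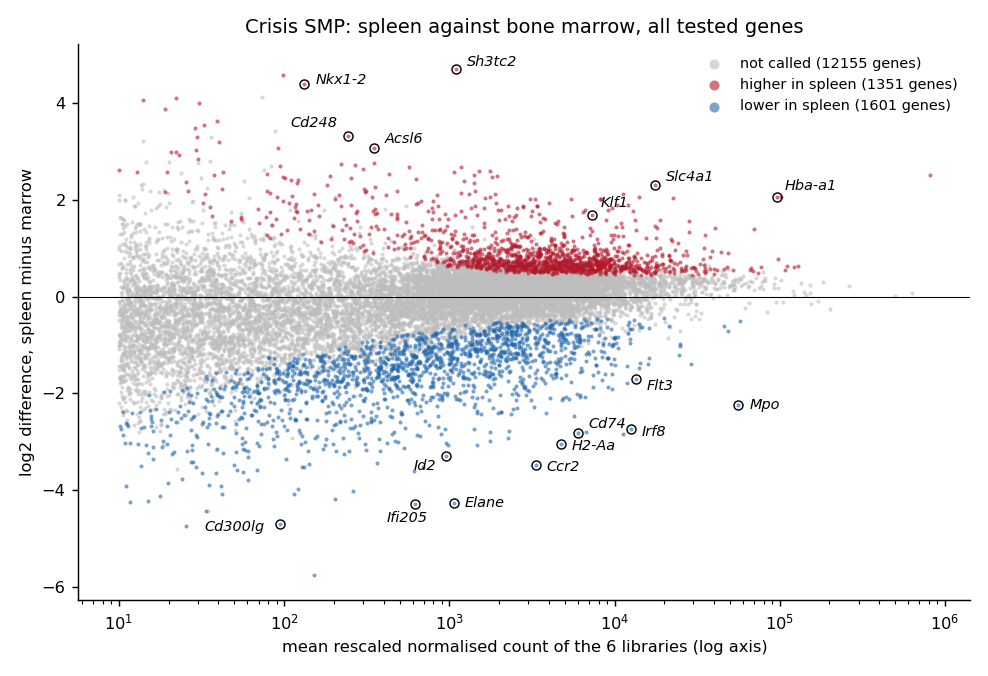
Each point is a gene, with its mean rescaled normalised count over the 6 crisis SMP libraries on a log axis and its log2 difference between spleen and marrow. Red marks the 1351 genes higher and blue the 1601 genes lower in spleen at an adjusted p under 0.05, and the blue cloud reaches further from 0 than the red one.

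Genes of MHC class II, the complex that presents peptides to helper T cells, led the comparison. The 4 smallest p-values were those of H2-Aa, H2-Eb1, Cd74 and the class II gene model H2-Ea-ps. Of 10 members tested 9 were lower in spleen and 0 higher, with a median difference of -2.48. The promoters of such genes are known to share a short module that includes a CCAAT element read on the reverse strand (ATTGG). In the 120 bases before the start site, RefSeq's table (GRCm38.p6) holds 6 of the 9 genes, and 5 of those have ATTGG or its reverse CCAAT, as have 21.3% of all 32851 promoter windows. The windows of 3 of them are printed because these genes were all lower in spleen than in marrow. They run 5′ to 3′ on the gene's strand, with the motif in capitals. They are chr17:34287824-34287943 (minus strand) for H2-Aa, chr17:34305747-34305866 (plus strand) for H2-Eb1 and chr17:34153071-34153190 (plus strand) for H2-DMb1.
H2-Aa: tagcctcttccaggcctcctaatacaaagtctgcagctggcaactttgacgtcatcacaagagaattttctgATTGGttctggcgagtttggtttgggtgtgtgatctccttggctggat
H2-Eb1: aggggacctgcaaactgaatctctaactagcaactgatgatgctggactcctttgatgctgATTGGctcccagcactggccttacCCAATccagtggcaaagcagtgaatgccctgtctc
H2-DMb1: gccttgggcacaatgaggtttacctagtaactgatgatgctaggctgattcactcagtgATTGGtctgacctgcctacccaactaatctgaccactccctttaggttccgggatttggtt
The ATTGG copies begin 48, 59 and 61 bases before the start of H2-Aa, H2-Eb1 and H2-DMb1, and H2-Eb1 has a CCAAT as well, at 35. A match of letters is a description and not a binding site.

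H2-Aa, the class II alpha chain, stood at 14753, 6409 and 4208 in marrow and at 1769, 599.7 and 656 in spleen (log2 -3.05, SE 0.18, adjusted p = 0.00179). Every spleen value lay below every marrow value, and mouse 2608 was the highest in both organs. Cd74, the invariant chain that guides class II molecules, went from 19502, 7456 and 4752 in marrow to 2602, 776 and 949 in spleen (log2 -2.83, SE 0.19, adjusted p = 0.00179). H2-Eb1, a beta chain, went from 5808, 2224 and 1288 in marrow to 811, 284 and 209 in spleen (log2 -2.81, SE 0.19, adjusted p = 0.00179). The organs were again separate for both genes. H2-DMb1, part of the peptide-loading factor H2-DM, differed by -3.13, H2-DMb2 by -2.36, H2-Ab1 by -2.13, H2-Ob by -1.82 and H2-DMa by -1.15. Ciita, the transactivator that drives class II genes, stood at 1739, 627 and 273 in marrow and 229, 59.3 and 96.2 in spleen (log2 -2.60, SE 0.39, adjusted p = 0.0134). H2-Oa, the remaining member, did not pass (log2 -0.91, SE 0.33, adjusted p = 0.083). Markers of dendritic cells, which carry much class II, moved in the same direction: H2-Aa and Cd74, which the class II list holds too, and Siglech summed to 10000 to 36600 in marrow and 1490 to 4540 in spleen, and all 3 were lower. Among B cell markers, Cd79b of the B cell receptor differed by -1.46 and Ighm, the IgM heavy chain, by -1.41, while Cd79a (-0.36), Ms4a1 (-0.17) and Igkc (1.80) did not pass. The part of either cell type in the class II difference was not tested.

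Genes of the dendritic, monocyte and granulocyte lines were lower in spleen as groups. Of 14 dendritic cell genes 10 were lower and 1 higher (median -1.92), of 20 monocyte and macrophage genes 10 were lower and 1 higher (median -1.40), and of 19 genes of primary granules and promyelocytes 17 were lower and 0 higher (median -2.25). The all-gene median was -0.01. Without mouse 2629 the monocyte count was 6 lower, and by column totals the granule count was 11. Ccr2, the chemokine receptor of inflammatory monocytes, was 11.2-fold lower, at 8578, 6282 and 3481 in marrow and 976, 310.4 and 436 in spleen (log2 -3.49, SE 0.26, adjusted p = 0.00276). Irf8, a transcription factor of monocyte and dendritic fate, stood at 35922, 18653 and 11068 in marrow and 4059.8, 1589 and 3917 in spleen (log2 -2.73, SE 0.34, adjusted p = 0.0112). Klf4, a zinc-finger factor of monocytes, stood at 1864, 1329 and 625 in marrow and 82.8, 78.8 and 152 in spleen (log2 -3.52, SE 0.45, adjusted p = 0.0112). None of these 3 genes had overlapping organs. Clec9a, a receptor of conventional dendritic cells, differed by -3.04, Siglech, a receptor of plasmacytoid dendritic cells, by -3.02 and Csf1r, the receptor for M-CSF, by -2.32. The monocyte-list gene that was higher was Slc40a1, the iron exporter ferroportin (1.39), which the iron list holds too, and the dendritic-list gene was Zbtb46 (1.10).

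Mpo, which encodes myeloperoxidase of primary granules, stood at 115885, 103704 and 55346 in marrow and 35619.6, 10698 and 16347 in spleen (log2 -2.25, SE 0.29, adjusted p = 0.0112). Elane, which encodes neutrophil elastase, showed a wider gap, at 2688, 2576 and 827 in marrow and 50.6, 141 and 108 in spleen (log2 -4.27, SE 0.47, adjusted p = 0.0102), and its size ran from -5.70 in mouse 2608 to -2.92 in mouse 2953. Ctsg, cathepsin G of the same granules, differed by -2.43, and Clec12a, a lectin receptor of myeloid cells, by -2.43. The myeloid transcription factors went the same way, with Cebpa at -2.05, Cebpe at -1.98 and Gfi1 at -1.36. Calr, a chaperone, and Nkg7 were the 2 members that did not pass. Of 16 genes of mature neutrophils 3 were lower and 0 higher, and 1 was lower without mouse 2608. The neutrophil markers S100a8, S100a9, Ltf and Ngp summed to 629 to 1730 in marrow and 397 to 812 in spleen, with 0 of 4 called.

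Genes that mark lymphoid-primed and stem cells followed. Of 14 lymphoid-primed genes 11 were lower in spleen and 0 higher (median -1.75), and of 29 stem and early progenitor genes 10 were lower and 1 higher (median -0.96). Flt3, the receptor of multipotent and lymphoid-primed progenitors, stood at 26474, 15726 and 17806 in marrow and 9749.6, 2779 and 7948 in spleen (log2 -1.70, SE 0.24, adjusted p = 0.0123). Dntt, the terminal transferase of early lymphoid cells, stood at 22062, 7369.9 and 3692 in marrow and 8937, 904 and 1510 in spleen (log2 -1.87, SE 0.32, adjusted p = 0.0151). Flt3 separated the organs in full, whereas for Dntt the spleen value of mouse 2608 exceeded the marrow values of the other mice. Il7r, the IL-7 receptor, differed by -2.04, Satb1, a chromatin organiser, by -1.76, Notch1, a receptor of T-lineage choice, by -1.57, and the recombinase genes Rag1 and Rag2 by -1.84 and -1.57. Among stem cell genes Hlf, a transcription factor of stem cells, stood at 4209, 6215 and 8022 in marrow and 3243, 1114 and 3412 in spleen (log2 -1.36, SE 0.33, adjusted p = 0.0311), and the homeobox gene Meis1 differed by -1.14. Mllt3 was the stem-list gene that was higher (log2 0.90, SE 0.19, adjusted p = 0.0234). The count of the stem list depended on scaling: 1 member was lower after division by column totals and 3 by upper quartiles, and 4 were lower without mouse 2953. Of 27 B cell genes 10 were lower and 0 higher (median -0.78), among them Ebf1, a B-lineage factor (-2.58), and Ighm, at 19337, 9313 and 6088 in marrow and 4541, 4122 and 3099.9 in spleen (log2 -1.41, SE 0.22, adjusted p = 0.0134). The B cell count was 3 lower and 1 higher without mouse 2608, and 5 lower without rescaling or by column totals. Of 25 genes of T and NK cells 4 were lower and 0 higher, against 10.6% lower among all genes tested. Without mouse 2608, 1 gene of T and NK cells was lower. Fcgr3 and Ly6a, markers the gate keeps low or leaves out, summed to 99.7 to 181 in marrow and 10.1 to 36 in spleen.

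Megakaryocyte and platelet genes were lower in spleen, 16 of 31 tested and 0 higher (median -1.23). Plek, pleckstrin of platelets, stood at 8727, 8686 and 10475 in marrow and 3766, 1222 and 2576 in spleen (log2 -2.02, SE 0.27, adjusted p = 0.0115). Itgb3, a subunit of the fibrinogen receptor, stood at 2196, 1686 and 2804 in marrow and 962, 383 and 1074 in spleen (log2 -1.57, SE 0.22, adjusted p = 0.0123), and the organs did not overlap for either gene. Its partner Itga2b differed by -1.36, the platelet chemokine Pf4 by -1.61, the ADP receptor P2ry12 by -2.69 and Vwf, which encodes von Willebrand factor, by -0.75. The count was 5 without mouse 2953, 5 after division by column totals and 8 without rescaling or by upper quartiles. Of 21 genes of mast cells, basophils and eosinophils 5 were lower and 0 higher, with 8, 3 and 3 lower without mouse 2608, 2629 and 2953. Cpa3, the mast cell carboxypeptidase, stood at 1323, 2966 and 2255 in marrow and 975, 289.5 and 538 in spleen (log2 -1.95, SE 0.46, adjusted p = 0.0277), and the mast cell tryptases Tpsb2 and Tpsab1 were listed at 0 in all 6 libraries.

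**Figure D2:**
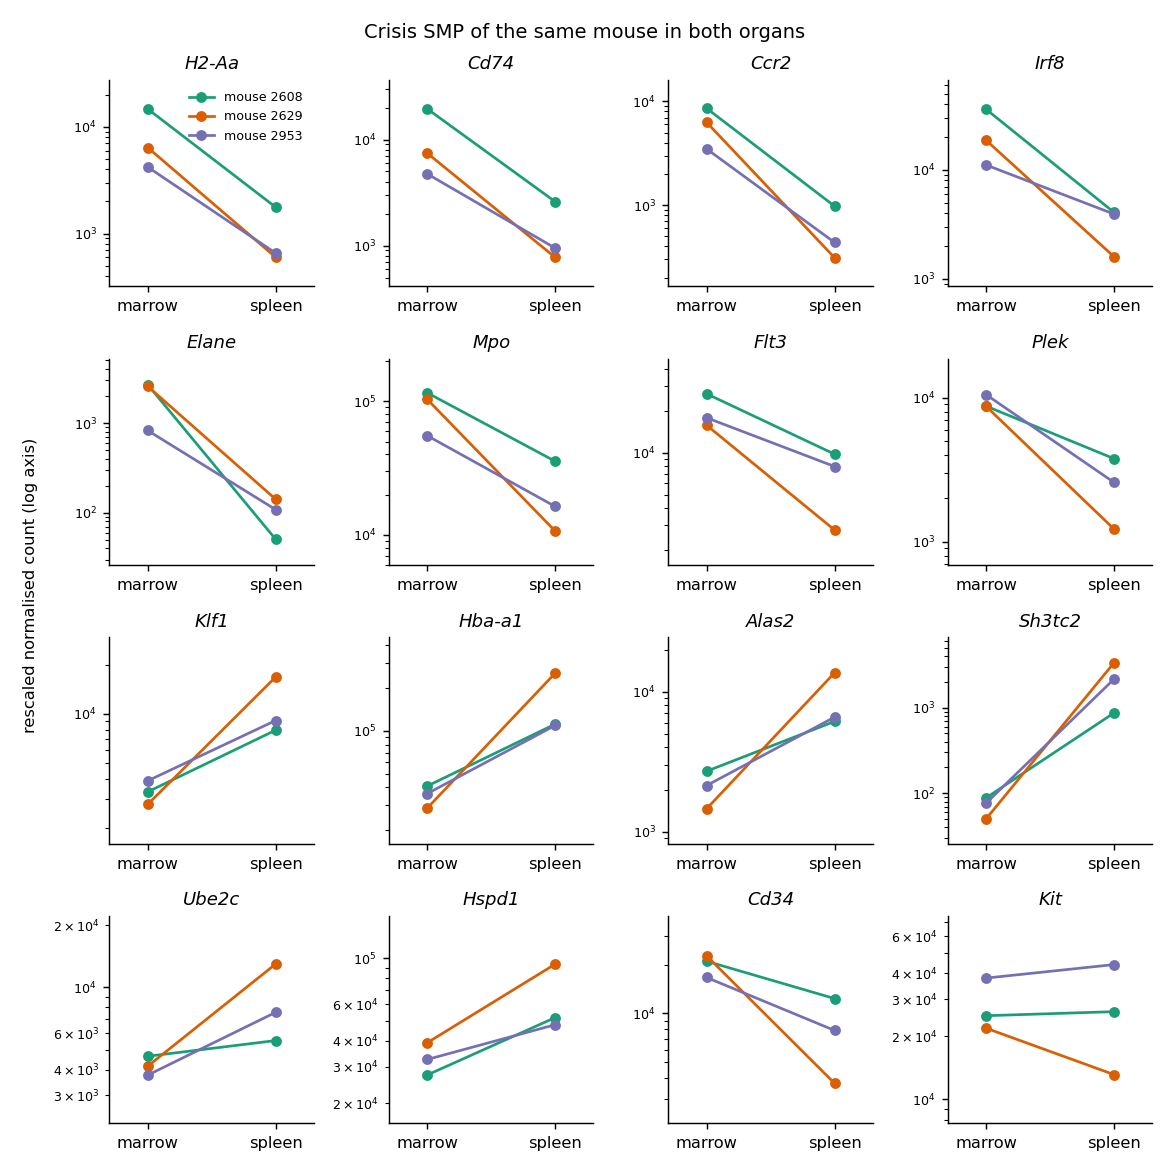
Lines join the marrow and spleen values of a mouse for 16 genes, as rescaled normalised counts on log axes. H2-Aa to Plek descend towards spleen in all 3 mice and Klf1 to Hspd1 ascend, Cd34 descends, and Kit descends in mouse 2629 and ascends slightly in the other mice.

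Erythroid genes were higher in spleen. All 4 globin genes tested were higher (median 2.06), as were 27 of 33 genes of the red cell membrane and late erythroid cells (median 1.53) and 13 of 16 genes of heme synthesis (median 1.05), with 0 lower in these 3 lists. Of 18 erythroid transcription factors 6 were higher and 0 lower (median 0.35). Klf1, the erythroid Krüppel-like factor, stood at 3322, 2782 and 3883 in marrow and 7941, 16830.1 and 9106 in spleen (log2 1.69, SE 0.26, adjusted p = 0.0134). Gata1, the master regulator of erythroid genes, stood at 3808, 3610.2 and 4815 in marrow and 7796, 13774 and 8606 in spleen (log2 1.27, SE 0.21, adjusted p = 0.015). Marrow values of the 3 mice lay close together for both genes, while in spleen mouse 2629 stood above the others. Zfpm1 and Tal1, partners of Gata1, differed by 1.07 and 0.90, and Gfi1b and Sox6 by 1.13 and 1.22.

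The factor Klf1 is known to bind CACC boxes in beta-globin promoters. The window before the adult beta-globin gene Hbb-bs, chr7:103827929-103828048 (minus strand, GRCm38.p6), is printed with its box CCACACCC in capitals. That box begins 93 bases before the start, and 1.84% of all promoter windows of 120 bases hold it on either strand. The other 3 globin genes lack these letters in their reference windows. Gene names and bases are those of the reference genome, and the globin sequence of this strain was not examined.
Hbb-bs: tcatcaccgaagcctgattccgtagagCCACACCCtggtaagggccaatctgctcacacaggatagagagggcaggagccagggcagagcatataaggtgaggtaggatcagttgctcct
Hbb-bs stood at 42206, 29683 and 38469 in marrow and 109963, 272558 and 116546 in spleen (log2 2.06, SE 0.31, adjusted p = 0.0134). Hba-a1, an alpha-globin gene, stood at 40912, 28619 and 36217 in marrow and 111306, 253253 and 108934 in spleen (log2 2.06, SE 0.30, adjusted p = 0.0127). The 4 globins differed by 2.05 to 2.06, and together they made up 0.147 to 0.221% of the marrow and 0.509 to 1.04% of the spleen libraries. Alpha-globin and beta-globin copies are close to identical, so how reads were shared between copies is uncertain.

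Alas2, the first and rate-limiting enzyme of erythroid heme synthesis, stood at 2704, 1458 and 2136 in marrow and 6139.8, 13676 and 6588 in spleen (log2 2.01, SE 0.34, adjusted p = 0.015). The next enzymes were higher too, with Alad at 1.59, Cpox at 1.43 and Fech, which inserts iron, at 1.43. Alas1, the form used by all tissues, did not pass (log2 -0.48, SE 0.18, adjusted p = 0.0967). Slc4a1, the anion exchanger band 3, stood at 7324, 3951 and 5954 in marrow and 20735, 45141 and 22539.8 in spleen (log2 2.31, SE 0.33, adjusted p = 0.0125). Ank1, its anchor to spectrin, differed by 1.89 and Dmtn, dematin, by 2.59, the top of this list. Car1, carbonic anhydrase of red cells, varied between mice more than between organs, at 13696, 33525 and 68259 in marrow and 31778, 114431 and 155729 in spleen, yet each mouse had the higher value in spleen (log2 1.39, SE 0.15, adjusted p = 0.0102). Of 16 genes of iron handling 9 were higher and 1 lower. Tfrc, the transferrin receptor, differed by 0.93 and Steap3, an endosomal iron reductase, by 1.37, while Trf, transferrin, was the lower gene (-2.41). Of the heme list 5 genes passed without rescaling, 6 by column totals, 8 by upper quartiles and 7 without mouse 2953, and of the membrane list 17 without rescaling and 13 by column totals. Of the erythroid factors 1 and 3, and of the iron list 1 and 4, were higher in the same 2 scalings, and all 4 globins passed in each scaling and without any 1 mouse.

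Targets of erythropoietin were mixed. Of 20 genes of this list 5 were higher and 1 lower (median 0.05). Epor, the erythropoietin receptor, stood at 1809.7, 1753 and 2920 in marrow and 3621, 9211 and 6716 in spleen (log2 1.53, SE 0.26, adjusted p = 0.015). Erfe, erythroferrone, the erythroid hormone that frees iron, stood at 161, 485 and 377 in marrow and 366, 5198 and 1265 in spleen (log2 2.11, SE 0.39, adjusted p = 0.0175), and its spleen value in mouse 2629 exceeded every other value. Podxl, a surface sialomucin, differed by 1.83, Cish, a feedback inhibitor, by 0.83 and the cytokine Osm by 0.91, while the kinase Lyn was lower (-0.73). Members of the signals that act in stress erythropoiesis were lower where they passed, 5 of 20, against 10.6% lower among all genes tested. The count was 3 without mouse 2608 or 2953, 2 without rescaling and 1 by column totals. Id2, an inhibitor of basic helix-loop-helix factors, had the smallest p of these signals. It stood at 2720.2, 1416 and 1014 in marrow and 324, 83.9 and 149 in spleen (log2 -3.30, SE 0.30, adjusted p = 0.00588).

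Among genes with a spleen mean of at least 50, the 12 largest positive differences were headed by Sh3tc2, an adaptor known from Schwann cells. It stood at 88.5, 50.3 and 76.9 in marrow and 869, 3349.8 and 2159 in spleen (log2 4.70, SE 0.47, adjusted p = 0.0094). Nkx1-2, a homeobox gene, stood at 19.8, 17.1 and 3.12 in marrow and 267, 330.1 and 159 in spleen (log2 4.39, SE 0.45, adjusted p = 0.0102). Cd248, endosialin, stood at 69.2, 34.1 and 32.8 in marrow and 355, 461 and 507 in spleen (log2 3.32, SE 0.40, adjusted p = 0.0108). In these 3 genes the lowest spleen value was several times the highest marrow value. Rasgef1c differed by 4.01, Nid1, nidogen of basement membranes, by 3.20, Acsl6, an acyl-CoA synthetase, by 3.07 and Hey1, a target of Notch, by 3.02. The rest were the pseudogenes Rpl23a-ps3 (3.64) and Pgam1-ps2 (3.07), for which reads of the parent gene cannot be told apart, and Gm8181 (3.56), A730036I17Rik (3.48) and Gm16568 (3.30). Rpl23a-ps3, Gm8181, A730036I17Rik, Gm16568 and Pgam1-ps2 were each at 0 in 1 marrow library, so the size of their differences depends on the pseudocount of 1.

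Among genes with a marrow mean of at least 50, the 12 largest negative differences were headed by Cd300lg, a receptor known from endothelium. It stood at 304, 158 and 85.4 in marrow and 6.14, 1.63 and 11.8 in spleen (log2 -4.70, SE 0.66, adjusted p = 0.0123). Ifi205, an interferon-inducible DNA-binding protein, stood at 1965, 1150.5 and 431 in marrow and 133, 35.7 and 26 in spleen (log2 -4.28, SE 0.33, adjusted p = 0.00276). Ly6c2, a surface antigen of monocytes, stood at 411, 642 and 118 in marrow and 7.53, 30.5 and 18.4 in spleen (log2 -4.19, SE 0.56, adjusted p = 0.0115). The organs were separate in all 3 genes. Elane is described above. The others included the disaccharidase Mgam (-4.44), the tight-junction gene Cldn1 (-4.09), the orphan receptor Gpr141 (-4.01), Pid1 (-3.97), 4930431P03Rik (-3.92), the glycosyltransferase B3galnt1 (-3.90) and Acvrl1, a receptor of the BMP family (-3.80). Mgam, 4930431P03Rik, B3galnt1 and Acvrl1 were each at 0 in 1 spleen library, so their size depends on the pseudocount too, and over all alternatives B3galnt1 ran from -5.04 to -2.25. Among the 235 genes tested with no symbol, 12 were higher and 14 lower.

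Genes of cell division were higher in spleen by small amounts. Of 34 genes of G1/S and DNA replication 13 were higher and 0 lower (median 0.40), and of 34 genes of G2/M and mitosis 10 were higher and 0 lower (median 0.44). Ccne1, cyclin E1, stood at 1291, 1883 and 1378 in marrow and 1874, 8691 and 2675 in spleen (log2 1.23, SE 0.29, adjusted p = 0.0279). Ube2c, which helps to degrade mitotic cyclins, stood at 4639.6, 4151 and 3760.4 in marrow and 5525, 12949 and 7564 in spleen (log2 0.97, SE 0.24, adjusted p = 0.0319). Ccnb1, cyclin B1, stood at 5234, 6379.8 and 6266 in marrow and 7110.2, 19337 and 9703 in spleen (log2 0.89, SE 0.22, adjusted p = 0.0319). Mouse 2629 had the highest spleen value of each and mouse 2608 the lowest. Differences of this size depended on scaling and on single mice: neither list kept a call without rescaling, after division by column totals or without mouse 2953, though their medians stayed above 0. Without mouse 2608 the G1/S count was 7, and without mouse 2629 the G2/M count was 5.

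Genes of mitochondrial respiration, protein folding and redox defence were higher in spleen too. Of 36 nuclear genes of oxidative phosphorylation 15 were higher (median 0.50), of 19 heat shock and folding genes 13 (median 0.65) and of 23 genes of oxidative defence 11 (median 0.47), with 0 lower in each list. Hspd1, the mitochondrial chaperonin, stood at 27344, 39086 and 32473 in marrow and 51662, 93447 and 47751 in spleen (log2 0.91, SE 0.16, adjusted p = 0.016), and its cofactor Hspe1 differed by 1.01. Cyc1, cytochrome c1, stood at 5184, 6018 and 4882 in marrow and 7725, 13067 and 8057 in spleen (log2 0.81, SE 0.15, adjusted p = 0.0181). Nqo1, a quinone reductase of the Nrf2 response, stood at 361, 343 and 393 in marrow and 1168, 1258 and 1262 in spleen (log2 1.75, SE 0.21, adjusted p = 0.0102), with both organs tight. Prdx2, the main peroxiredoxin of red cells, differed by 1.19. Of 24 genes of amino acid supply 7 were higher and 2 lower, with Asns, asparagine synthetase, at 1.59 and Mthfd2, of the mitochondrial folate cycle, at 1.23. Without rescaling 0 genes of the respiration, folding and redox lists were called, by column totals 1, 5 and 3, and without mouse 2953 they numbered 1, 5 and 4. Without mouse 2608, 9 respiration genes were called. Of the amino acid supply list, 1 gene was higher and 1 lower without rescaling, and 5 were higher and 0 lower by column totals. Ribosomal protein genes all lay above 0 (61 of 61, median 0.31) but only 2 passed. Of 15 mitochondrial transcripts 2 passed, the ribosomal RNAs mt-Rnr1 (0.97) and mt-Rnr2 (0.44). Over all genes tested, 8.94% were called higher in spleen.

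Metallothioneins, which bind zinc and copper, showed large differences between mice inside an equal direction. Mt1 stood at 1179, 2328 and 5909 in marrow and 3960.2, 10896 and 14495 in spleen (log2 1.76, SE 0.19, adjusted p = 0.0102). Mt2 stood at 867, 2344 and 7223 in marrow and 3024, 15800.4 and 20269 in spleen (log2 2.01, SE 0.23, adjusted p = 0.0102). The organs overlapped because mouse 2953 was high and mouse 2608 low in both, yet each mouse had more in spleen. Slc30a10, a manganese exporter, differed by 2.10, and Mtf1, the zinc-sensing factor of metallothionein genes, by 0.65, which made 4 of 9 genes of the list higher.

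Of 41 adhesion and homing genes 20 were lower and 2 higher (median -1.004). Itgb7, an integrin subunit, stood at 7773, 3919 and 2365 in marrow and 1797, 629.9 and 924 in spleen (log2 -2.03, SE 0.24, adjusted p = 0.0102). Cxcr4, the receptor that holds progenitors in marrow through Cxcl12, stood at 16809.7, 11338 and 7177 in marrow and 7212, 2932 and 4754 in spleen (log2 -1.26, SE 0.24, adjusted p = 0.0175), and its spleen value in mouse 2608 exceeded the marrow value of mouse 2953 by a little. Pecam1, an adhesion molecule of platelets and leukocytes, differed by -1.85 and Ptk2, focal adhesion kinase, by 0.99. The homing count was 13 without mouse 2953, by column totals and by upper quartiles. Of 21 stromal and endothelial genes 4 were lower and 0 higher (median -1.01), namely Postn, Pdgfrb, Pecam1 and Spp1. The markers Col1a1, Cxcl12, Cdh5 and Stab2 summed to 101 to 176 in marrow and 49.9 to 60.8 in spleen, with 0 of 4 called.

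Signalling lists gave few calls. Among 33 regulators of Ras and Rap, 7 were lower and 2 higher: Rasgrp4, an exchange factor of myeloid cells, stood at 735, 299 and 257 in marrow and 134, 33.7 and 61.7 in spleen (log2 -2.53, SE 0.34, adjusted p = 0.0115), Rasa4, a GTPase-activating protein related to Rasa3, differed by -1.90, and Rap1gap, which inactivates Rap1, was higher (1.79). Of 18 genes of ERK feedback 2 were lower, Dusp6 (-1.09) and Ccnd1 (-1.18), and 0 higher. Of 33 interferon-response genes 3 were higher and 6 lower, and 3 were lower without mouse 2608. Rsad2, viperin, stood at 749, 454 and 737 in marrow and 2513, 4398 and 1679 in spleen (log2 2.07, SE 0.35, adjusted p = 0.0153), whereas Mx1 stood at 579, 305 and 154 in marrow and 141, 18.1 and 40.4 in spleen (log2 -2.64, SE 0.47, adjusted p = 0.0165). Isg15 was higher (1.40) and Ifi44 lower (-1.44). Of 21 NF-kB genes 5 were lower and 0 higher, and of 24 immediate early genes 5 were lower and 0 higher. Of 23 p53 targets 3 were lower and 4 higher, and of 33 genes of hypoxia and glycolysis 1 was lower and 6 higher. Of 20 unfolded-protein genes 2 were lower and 0 higher, and of 26 genes of lipid synthesis 0 were lower and 2 higher. Without mouse 2608 the lower NF-kB and immediate early genes numbered 1 and 3, and the higher p53 and hypoxia genes 1 and 2. Without mouse 2629 the higher p53 genes numbered 1, and without mouse 2953 the higher p53 and hypoxia genes numbered 1 and 3. Scaling mattered as well: without rescaling 0 p53 and 0 hypoxia genes were higher, and 1 NF-kB gene was lower. By column totals 0 p53 and 2 hypoxia genes were higher, while 0 lipid synthesis genes were higher and 2 lower. For the ERK, unfolded-protein and lipid lists, the shares in the main test lie near or below the background of 10.6% lower and 8.94% higher. The same holds for the higher interferon-response genes, the higher Ras and Rap regulators and the lower p53 and hypoxia genes.

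**Figure D3:**
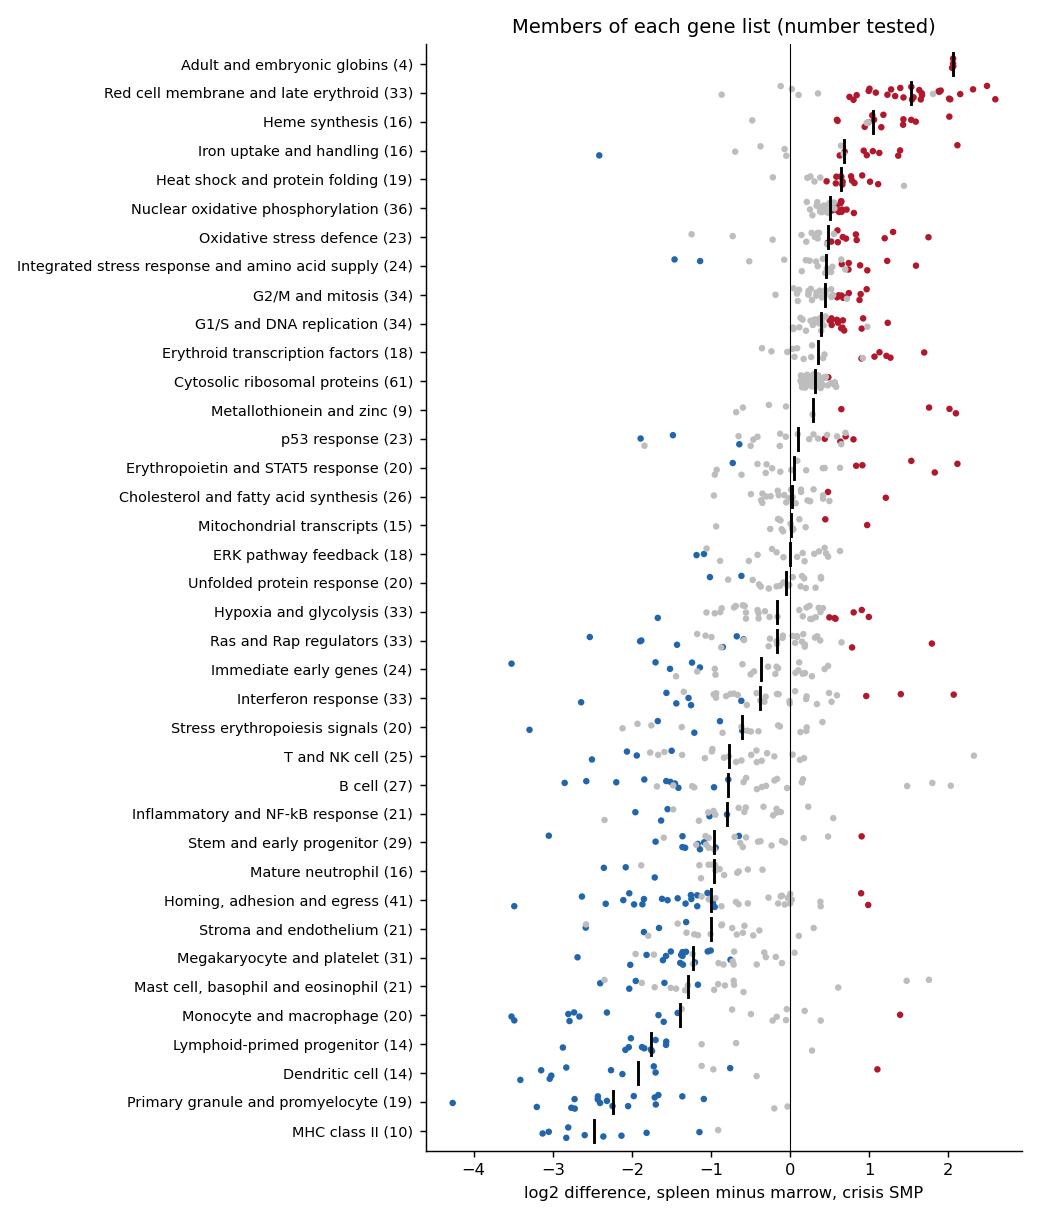
Each point is a tested member of a gene list at its log2 difference between spleen and marrow, red where it was higher and blue where it was lower in spleen at an adjusted p under 0.05, and black bars are list medians. Globins (median 2.06) and MHC class II genes (median -2.48) form the ends of the order.

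To ask whether the organ difference itself changes in crisis, it was compared with that of young WT SMP. No gene passed the test of the difference (0 of 15389, 0%, with 4184 at an unadjusted p under 0.05 and a smallest adjusted p of 0.104), so the values that follow are given side by side. Leaving out crisis mouse 2608 gave 1753 calls, leaving out 2629 gave 486 and leaving out 2953 gave 0. Of 2948 called genes measured in both, 2146 had the same sign in WT. The share with the same sign over all genes tested was not counted, so this count has no background beside it. Medians in crisis and WT were 1.53 and 1.45 for membrane genes, 2.06 and 1.76 for globins, 1.05 and 0.47 for heme synthesis and 0.35 and 0.39 for erythroid transcription factors. Granule genes had medians of -2.25 in crisis and -0.87 in WT. MHC class II genes had a median of -2.48 in crisis and 0.01 in WT.

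With all 12 libraries rescaled together, H2-Aa stood at 636, 1810 and 1480 in WT marrow, 2220, 999 and 649 in WT spleen, 15700, 6730 and 4530 in crisis marrow and 1890, 654 and 704 in crisis spleen. The 3 crisis marrow libraries were above all others, and the crisis spleen values lay among the WT values. The difference of differences was large but did not pass (log2 -2.95, SE 0.70, unadjusted p = 0.00109, adjusted p = 0.104). Cd74 (log2 -3.46, SE 0.84, unadjusted p = 0.00131, adjusted p = 0.104) and Id2 (log2 -3.20, SE 0.69, unadjusted p = 0.000498, adjusted p = 0.104) did not pass either. Over the 10 class II genes the median of crisis against WT was 2.01 in marrow and -0.60 in spleen, values given without a test. Klf1 instead stood at 1120, 1820 and 1020 in WT marrow, 3260, 4770 and 5220 in WT spleen, 3540, 2920 and 4180 in crisis marrow and 8500, 18400 and 9780 in crisis spleen, so that the organ difference was 1.76 in WT and 1.69 in crisis. Sh3tc2 differed by 4.72 in WT and 4.70 in crisis, and Elane by -3.97 and -4.27.

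The G2/M list had a median of 0.44 in crisis and -0.39 in WT, and the respiration list 0.50 and -0.18. At an unadjusted p under 0.05 the difference was more positive in crisis for 33 of 34 G2/M genes and 35 of 36 respiration genes, against 13.7% of all genes, and more negative for 9 of 10 class II genes, against 13.5%. Ube2c stood at 4420, 4570 and 4520 in WT marrow, 3410, 3880 and 3480 in WT spleen, 4950, 4360 and 4040 in crisis marrow and 5910, 14100 and 8120 in crisis spleen (log2 1.32, SE 0.32, unadjusted p = 0.00142, adjusted p = 0.104). The 3 crisis spleen libraries held the highest values and the WT spleen libraries the lowest. Cox7a2, a subunit of cytochrome c oxidase, stood at 2190, 2590 and 2250 in WT marrow, 1790, 2140 and 1430 in WT spleen, 2820, 3350 and 2760 in crisis marrow and 4150, 6320 and 4550 in crisis spleen (log2 1.14, SE 0.23, unadjusted p = 0.000284, adjusted p = 0.104).

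Among genes with other patterns, Rasa3 stood at 11400, 10600 and 11000 in WT marrow, 11200, 11800 and 10200 in WT spleen, 10000, 7790 and 7870 in crisis marrow and 7770, 4070 and 5950 in crisis spleen, so all 6 WT values exceeded all 6 crisis values and the WT organs lay together (0.01). Flt3 stood at 24800, 25500 and 27100 in WT marrow, 22400, 22600 and 13000 in WT spleen, 28200, 16500 and 19200 in crisis marrow and 10400, 3030 and 8540 in crisis spleen, and these last 3 values were below all others (difference of differences log2 -1.22, SE 0.47, unadjusted p = 0.0232, adjusted p = 0.135). Mt2 stood at 9.52, 45.8 and 7.32 in WT marrow, 133, 410 and 250 in WT spleen, 925, 2460 and 7770 in crisis marrow and 3240, 17200 and 21800 in crisis spleen, which places every crisis value above every WT value, and spleen was higher in both states (3.91 in WT).

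**Figure D4:**
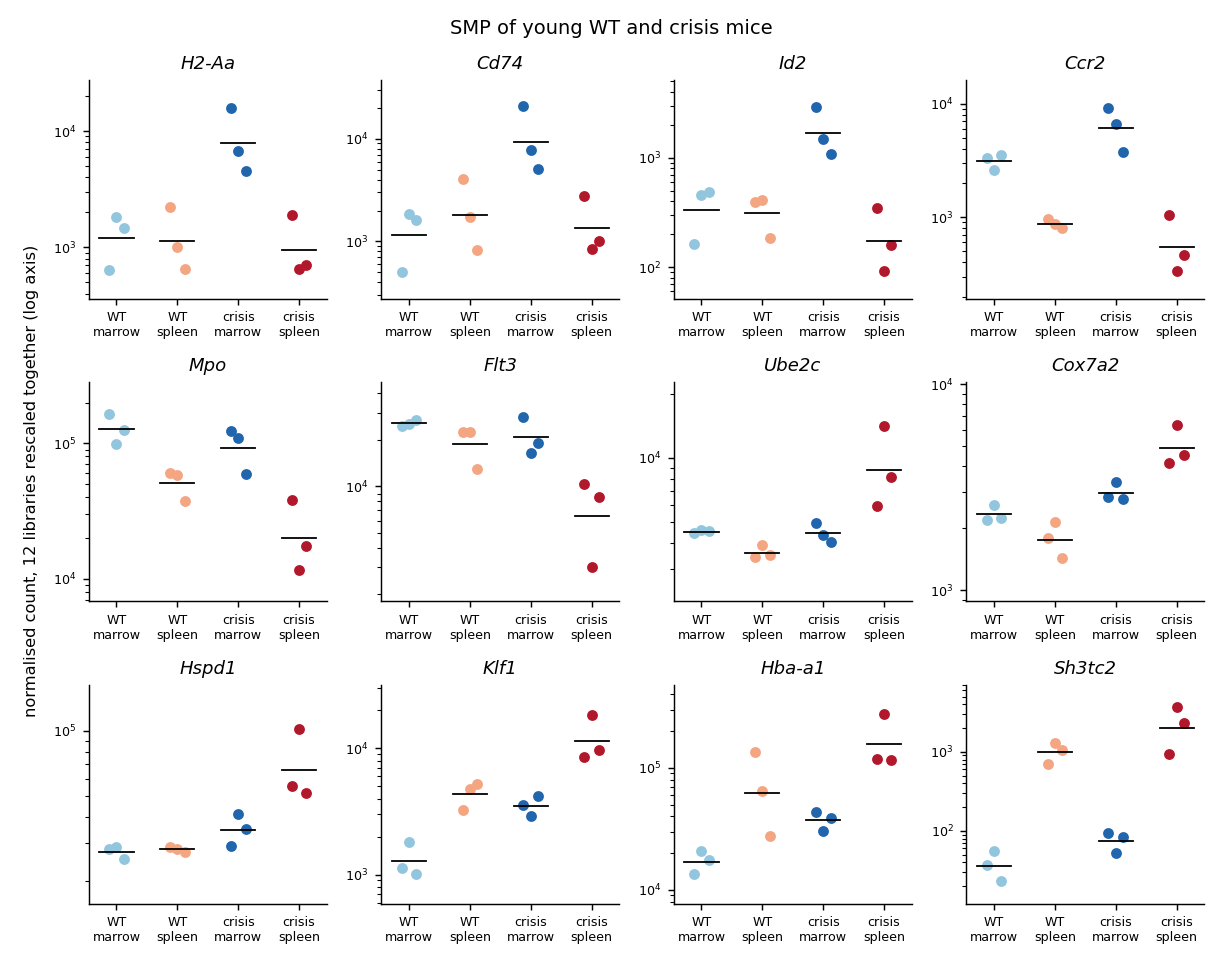
Points are SMP libraries of young WT and crisis mice, 3 per group, as normalised counts after all 12 were rescaled together, on log axes, with bars at the geometric mean. H2-Aa, Cd74 and Id2 are highest in crisis marrow, Ube2c and Cox7a2 are highest in crisis spleen, and Klf1, Hba-a1 and Sh3tc2 are higher in spleen in both states.

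In MEP of the same 3 crisis mice, 0 of 14739 genes differed from SMP in their organ difference at an adjusted p under 0.05 (0%, 2557 at an unadjusted p under 0.05, smallest adjusted p 0.116). The MEP libraries come from the same mice but not from the same cells. Of 2919 called genes measured in both, 2685 had the same sign in MEP. The share with the same sign over all genes tested was not counted here either. Lymphoid-primed, granule and class II lists had negative medians in MEP as well, of -2.98, -2.11 and -2.60, and H2-Aa differed by -3.04 there (SMP minus MEP log2 -0.09, SE 0.77, unadjusted p = 0.905, adjusted p = 0.961). Some members were low in MEP: Ctsg stood at 28.4, 35.1 and 67.2 in MEP marrow and 12.6, 5.27 and 0 in MEP spleen. Rag1 was high only in the MEP marrow of mouse 2608, at 6514, 163 and 16.0 in marrow and 84.0, 13.4 and 5.41 in spleen. H2-Ab1 was not low, at 533, 758 and 1254 in MEP marrow and 109, 202 and 236 in MEP spleen. In MEP the median was 0.06 for membrane genes, 0.08 for heme synthesis, 0.05 for erythroid transcription factors and 0.54 for globins. Klf1 differed by 0.08 in MEP against 1.69 in SMP, a gap that did not pass (SMP minus MEP log2 1.54, SE 0.36, unadjusted p = 0.00168, adjusted p = 0.19), and Hba-a1 by 0.43 (log2 1.55, SE 0.36, unadjusted p = 0.00158, adjusted p = 0.19).

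**Figure D5:**
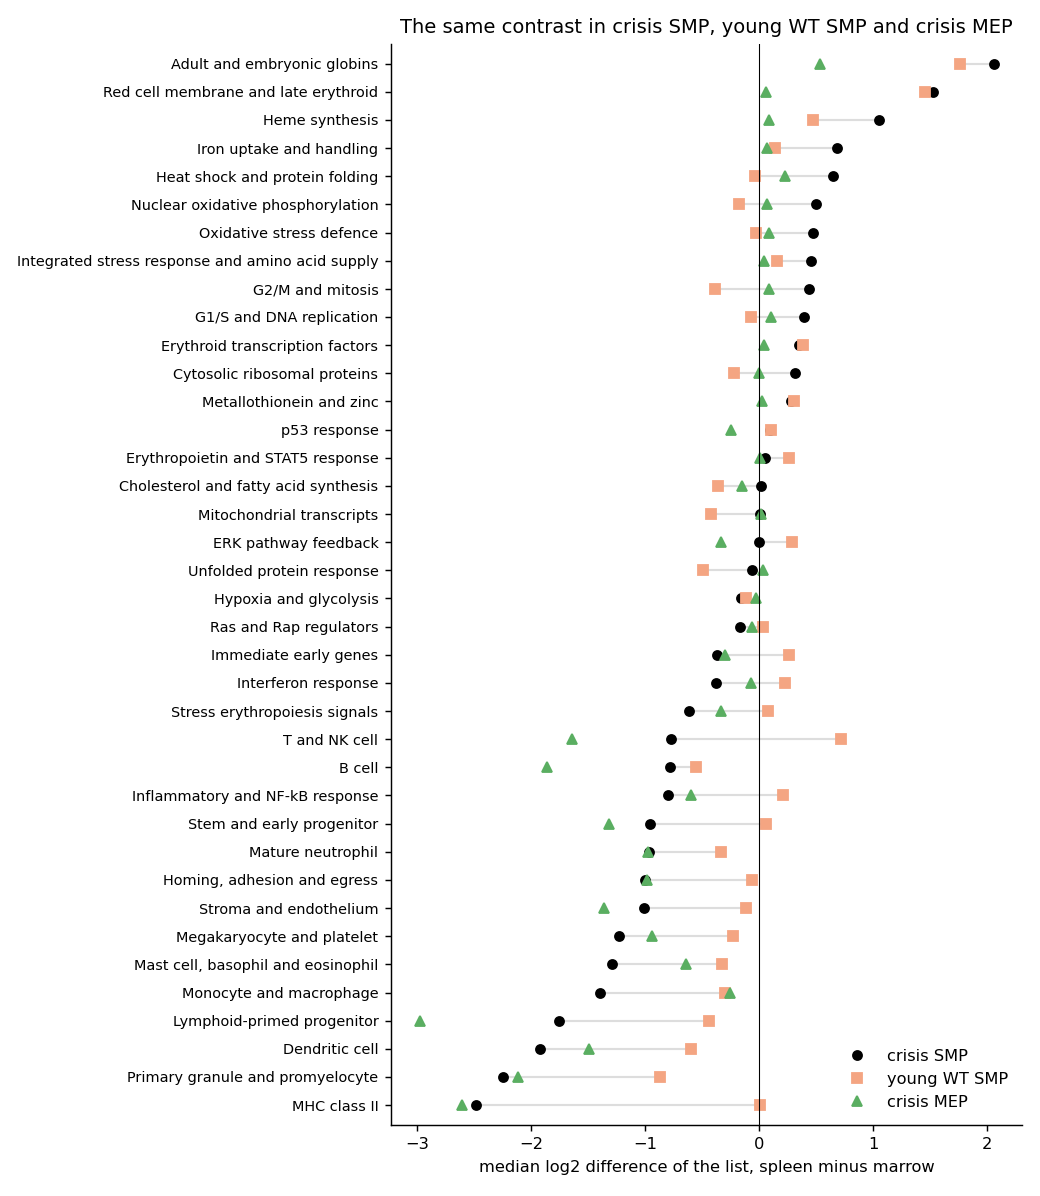
For each gene list, the median log2 difference between spleen and marrow is shown in crisis SMP (circles), young WT SMP (squares) and crisis MEP (triangles). Class II genes lie near -2.5 in both crisis populations and near 0 in WT, while membrane genes lie near 1.5 in both SMP groups and near 0 in MEP.

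The size of the organ difference was not equal among the mice. Mouse 2629, the oldest at 28 days, had the largest absolute difference in 2657 of the 2952 called genes (90.0%), and its median absolute difference over all genes tested was 0.67, against 0.32 in mouse 2608 and 0.38 in mouse 2953. Its spleen library also had the fewest genes above 0 (17620) and the highest globin share (1.04%). Without this mouse 2350 genes passed, 2248 of them among the 2952. Class II and granule genes illustrate the spread, with list medians of -2.83, -2.88 and -1.58 for class II and -1.98, -3.04 and -1.37 for granule genes in mice 2608, 2629 and 2953. Heme genes had medians of 0.53, 1.90 and 0.91 in the same order.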

How the data were processed

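RNA-seq libraries were made from sorted cells with a KAPA mRNA HyperPrep kit, per the labels' protocols. The submitters' processing notes name Bowtie2 2.2.0, RSEM, DESeq2 and GRCm38, with no order or role. The deposited main table holds the authors' normalised counts, a coverage-like signal in which whole reads could not be recovered, and the deposited second table holds the authors' regularised log2 values, used as an alternative. The strandedness of counting is not given in the sources used here. Reads per library, judged from the smallest steps between low values, had low and high estimates that together spanned 30.7 M to 70.6 M. The marrow library of mouse 2953 alone ran from 34.7 M to 70.6 M, so this range is not the spread of depth between libraries.

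The 6 columns were divided by their median ratio to the geometric mean. A mean of 10 or more was required, and testing used log2(count + 1), which understates changes of low genes, by limma 3.58.1 in R 4.3.3 (trend and robust, two-sided, Benjamini-Hochberg adjustment, threshold 0.05), with the mouse as a fixed block. This fit has 2 residual degrees of freedom, and an exact test over 3 pairs cannot give a p below 0.25. Pairing follows from the mouse numbers in the labels. Deviations from the group means correlated at 0.429, 0.191 and 0.41 between the libraries of a mouse and at -0.412 to 0.0587 otherwise. Within an organ these deviations sum to 0 for each gene, so positive values within mice push those between mice below 0. The contrast is partly built in and is no separate check of the pairing. Differences of the organ contrast against young WT SMP (mouse as a random block) and against crisis MEP were interaction terms of 12 libraries rescaled together. The fits were also run on simulated data in which the organ effect was equal in all mice. That run cannot show how they behave where the mice differ in effect, as they do here.

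Named genes are Rasa3, Kit and Cd34, the 12 largest differences per direction among called genes with a level of at least 50 and 1 sign in all 3 mice, and, for each list, members that were called or the 4 with the smallest p. H2-Ea-ps, H2-Oa, Alas1, Calr and Nkg7 were named after their values were seen. Markers of other cell types are named as a fixed set, called or not, and Tpsb2 and Tpsab1 because they were at 0. The comparison, its members and the gene lists were chosen with earlier results of these data known. The p-values of the organ difference rest on the spread between 3 mice, combined with a spread borrowed across genes. Those of the comparison with WT also take in the spread between different WT mice. Promoter windows came from RefSeq's table for GRCm38.p6, matched by symbol. They hold reference sequence, and that of the strain studied was not examined. Some genes of the lists are not reported here by name.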

Additional observations from a re-analysis of the deposited data

How the results depend on the processing

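The 2952 calls (1351 higher in spleen, 1601 lower) became 818 (125 and 693) with the deposited values without rescaling, 1016 (248 and 768) with scaling by column totals, 1647 (703 and 944) by upper quartiles, and 6642 (3427 and 3215) with all SMP libraries in the fit. Of these, 798, 982 and 1620 were shared with the 2952 in the first 3 settings. The replicate block decided the calls: 0 (0 higher and 0 lower) were made without it, at a smallest adjusted p of 0.0719, and 0 (0 and 0) with neither trend nor robust moderation, at 0.0782. Leaving out a mouse gave 1214 to 2350 calls, 376 to 999 higher and 838 to 1351 lower. Pseudocounts of 0.5 and 10, no filter, a filter at 100 and the regularised log2 table gave 2870 to 3275 calls. The test of crisis against WT gave 0 to 1753 calls when a library or mouse was left out, with 1753 without crisis mouse 2608, 486 without 2629 and 1 without WT spleen replicate 3. The test of SMP against MEP gave 65 without rescaling and 0 to 2 when a mouse was left out. Both gave 0 without the block. Of 166 named-gene results only Kit changed sign, with -0.33 to 0.14 when a mouse was left out (0.14 without 2629). Fewer passed without rescaling (66 lost), by column totals (51), by upper quartiles (30) and without mouse 2608, 2629 or 2953 (33, 14 and 40). List medians changed sign for the erythropoietin, ERK, p53, lipid synthesis and mitochondrial transcript lists. The cause of these shifts was not tested.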
